A study of Mus musculus with 6 samples.

Results

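Differentiated cells with and without the telomere protein TRF2 were compared in 1 pair of RNA-seq libraries: FLICs given OHT for 3 days against untreated FLICs. These are 2 of the 6 libraries of the series. They were chosen by their sample titles and treatment labels, and all 22600 genes of the count table were considered. The untreated FLICs are labelled wild-type and the OHT-treated FLICs TRF2-/-, both on a C57BL/6 background and both after 96 h in culture. OHT is hydroxytamoxifen, a tamoxifen metabolite that is commonly used to switch on a Cre recombinase fused to an oestrogen receptor domain. The labels used here name neither the recombinase nor the allele, and FLICs are described only as differentiated ES cells. The other 4 libraries are mouse embryonic stem (ES) cells of the same background, also after 96 h in culture, 2 untreated and 2 given OHT for 3 days. No group received OHT while keeping TRF2, so OHT itself and the loss of TRF2 cannot be told apart. Each FLICs condition has 1 library, so no difference has a replicate check and none was tested.

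TRF2 binds the double-stranded repeats of telomeres as part of the shelterin complex. It shapes the chromosome end into a loop that hides it from the ATM kinase and from the end-joining machinery. In most differentiated cells its loss exposes chromosome ends, which then recruit 53BP1 and fuse. The design asks how differentiated and pluripotent cells differ in their response to that loss.

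The untreated library held 32302428 counts and the OHT library 43965309, within a range of 23534551 to 43965309 over the 6 libraries. At these depths 3 counts, taken as the limit that a count of 0 allows, equal 0.0926 and 0.0686 CPM. CPM are counts scaled to library size, here with library sizes adjusted by the trimmed mean of M values. Differences are OHT minus untreated in log2(CPM + 1), a scale that understates the change of low genes. Beside ratios of CPM stands a 95% exact interval, which covers counting error only and not the spread between cultures. Genes whose mean over both FLICs libraries reached 1 CPM were counted, and a gene passed the size rule when its difference was at least 2-fold. Counts past 2-fold or 1.5-fold use the log2(CPM + 1) scale, so a low gene whose ratio of CPM is just past 2 can miss the rule.

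The Terf2 transcript matched its label in every library (ENSMUSG00000031921, GRCm38 chromosome 8, 107069400 to 107096547, minus strand). In untreated FLICs it had 268 counts (8.27 CPM), and in the OHT library 5 (0.114 CPM). The ratio was 0.0138 (0.00445 to 0.0327), and the difference of -3.06 was the lowest of all 11789 genes counted. In ES cells it had 554 and 732 counts untreated and 9 and 10 with OHT. The other shelterin genes stood at like levels in both FLICs libraries. Terf1, the second double-strand repeat binder, was at 65.7 CPM untreated and 67.9 CPM with OHT. Terf2ip, which encodes the TRF2 partner RAP1, was at 30.7 and 32.7 CPM. Tinf2, the bridge of the complex, was at 62.3 and 64.0 CPM, and Pot1a, which binds the single-stranded overhang, at 48.5 and 48.7 CPM. Of the 10 shelterin and CST genes, Terf2 alone passed the size rule, and the list's median was 0.04 against 0.03 for all genes.

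The FLICs libraries were close to each other over most genes. By the size rule 62 of 11789 genes (0.526%) differed, 50 of them higher with OHT (0.424%) and 12 lower (0.102%). At 1.5-fold, 411 genes were higher (3.49%) and 109 lower (0.925%). Of the differences, 90% lay between -0.32 and 0.51. In all, 6649 genes (56.4%) were above 0, the share against which the counts of list members above 0 stand. With scaling by the FLICs libraries alone the all-gene median was -0.00455, so this share depends on the scaling. This share and the all-gene median of 0.03 pool genes of all levels, and the median difference fell with level. It was 0.124 for genes with means up to 10.6 CPM and 0.0511 for those up to 32.8 CPM. For those up to 82.0 CPM it was 0.0182, and above that -0.0129. Lists of mostly low or mostly abundant genes were not compared with genes of like level. ES libraries paired the same way, each OHT library against each untreated one, gave 3.16%, 4.87%, 3.86% and 3.13% of genes past 2-fold. The untreated ES libraries differed from each other in 0% of genes and the OHT-treated ones in 3.7%. The median absolute difference was 0.144 between the FLICs libraries, 0.107 between the untreated ES libraries and 0.213 to 0.295 in the 4 ES pairs with OHT. These ES pairs share libraries and are not independent. How much of the 0.526% is spread between FLICs cultures cannot be told from 1 library a side.

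**Figure D1:**
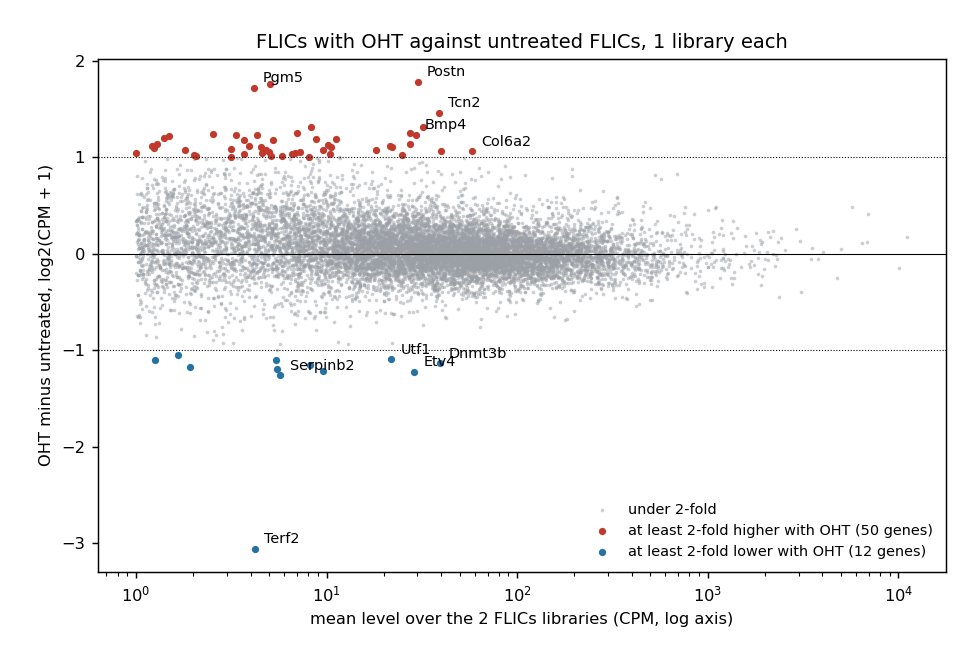
Each point is 1 of the 11789 genes counted in FLICs: the x axis gives the mean level over both libraries (CPM, log axis), the y axis OHT minus untreated in log2(CPM + 1), and dotted lines mark 2-fold. The 50 higher genes (red) and the 12 lower ones (blue) lie mostly at low levels, and Terf2 lies alone at -3.06.

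Genes past 2-fold were mostly of low abundance. Of the 50 higher genes, 21 had a mean of 1 to 5 CPM, 13 of 5 to 10 CPM and 16 of at least 10 CPM. Of the 12 lower genes, 4, 5 and 3 fell in those ranges. Some genes reached a mean of 1 CPM only through the library where they were high. Aldh3a1 was at 0.494 CPM untreated and 2.47 CPM with OHT, and Pcdh20 at 2.07 and 0.435 CPM. Of the 2948 genes with means up to 10.6 CPM, 37 were higher and 9 lower. Of the 2947 genes with means from 82.0 CPM upward, none passed. All 62 are protein-coding, and for each the counting interval of the ratio left out 1. That interval says nothing of how FLICs cultures vary.

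The gene with the highest difference was Postn, which encodes periostin, a secreted protein of collagen-rich matrix (chromosome 3, 54361109 to 54391037). It had 422 counts in untreated FLICs and 2066 with OHT, or 13.0 and 47.3 CPM, a ratio of 3.63 (3.27 to 4.04). In the ES libraries it was at 0 and 0 CPM untreated and 0.125 and 0 CPM with OHT, so nearly all of its signal was in FLICs. Tmem178, which encodes a membrane protein of the endoplasmic reticulum, was at 1.76 CPM without OHT and 8.35 CPM with it. Pgm5, which encodes a phosphoglucomutase relative found at cell adhesions of muscle, was at 1.39 and 6.89 CPM. It is given from the smooth muscle list, since its mean lies under the 5 CPM asked of the leading genes.

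Several leading genes encode secreted or carrier proteins. Tcn2, which encodes the vitamin B12 carrier transcobalamin, was at 20.2 and 57.6 CPM, a ratio of 2.85 (2.61 to 3.11). In ES cells it stood at 39.8 and 43.9 CPM untreated and 29.6 and 49.5 CPM with OHT, groups that overlap. Selenop, which encodes the selenium carrier of plasma, was at 15.9 and 39.2 CPM in FLICs, a ratio of 2.47 (2.24 to 2.73). It stood higher with OHT in both cell types: its ES levels were 3.91 and 2.90 CPM untreated and 16.4 and 11.7 CPM with OHT. Bmp4, which encodes a secreted growth factor of the TGF-beta superfamily, was at 17.1 and 41.6 CPM in FLICs, a ratio of 2.43 (2.21 to 2.68). Its ES levels of 24.1 and 17.4 CPM untreated and 24.1 and 15.9 CPM with OHT overlapped.

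The rest of the 15 leading genes were spread over several roles. Serpinb1a, an inhibitor of neutrophil proteases, was at 18.1 CPM without and 46.4 CPM with OHT, and its relative Serpinb9b at 6.39 and 15.9 CPM. Cbr2, a carbonyl reductase, was at 4.35 and 12.3 CPM. Fmod, the collagen-binding proteoglycan fibromodulin, was at 4.97 and 12.6 CPM, and Ccn3, a matricellular signalling protein, at 16.7 and 37.8 CPM. These matrix genes had little or no signal in ES cells, where Fmod had no count in any of the 4 libraries. Islr, a secreted protein that marks mesenchymal stromal cells, was at 3.70 and 10.2 CPM. Lgals3bp, a galectin-binding glycoprotein, was at 2.81 and 7.64 CPM, and Pik3ip1, an inhibitor of PI3-kinase, at 13.2 and 29.9 CPM. Nacad was at 6.02 and 14.4 CPM, and Capn6, a calpain without protease activity, at 6.27 and 14.7 CPM. Their differences ran from 1.11 to 1.32.

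Apart from Terf2, lower genes were fewer and their differences smaller in size than the highest ones. Serpinb2, the plasminogen activator inhibitor PAI-2, had 275 and 130 counts without and with OHT, or 8.49 and 2.97 CPM, a difference of -1.26. It had no count in any ES library. Etv4, an ETS transcription factor downstream of FGF and ERK signalling, was at 40.7 and 16.9 CPM, a ratio of 0.415 (0.379 to 0.455). Dnmt3b, a de novo DNA methyltransferase of the early embryo, was at 54.5 and 24.2 CPM, a ratio of 0.445 (0.412 to 0.480). Utf1, a chromatin factor of pluripotent cells, was at 30.2 and 13.6 CPM, a ratio of 0.452 (0.407 to 0.501). These last 3 are genes of the early embryo that ES cells express at higher levels than FLICs. In ES cells Etv4 was at 103 and 69.9 CPM untreated and 104 and 63.8 CPM with OHT, and Dnmt3b at 174 and 192 and then 174 and 143 CPM. Utf1 was at 382 and 332 CPM in untreated ES cells and 338 and 295 CPM with OHT. The ES groups overlapped for all 3.

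Further lower genes followed no single role. Dock8, a guanine nucleotide exchange factor, was at 13.7 CPM without and 5.33 CPM with OHT. Nup210, a nuclear pore protein, was at 8.06 and 2.95 CPM, and in ES cells also lower with OHT, at 248 and 228 CPM against 142 and 84.3 CPM. Zscan10, a zinc-finger factor of pluripotent cells, was at 11.7 and 4.71 CPM, and Areg, the EGF receptor ligand amphiregulin, at 7.75 and 3.07 CPM. The remaining 7 of the 15 lowest were under 2-fold on the log2(CPM + 1) scale. Among them were Vrtn, Ptchd1, Pim2, Fgf7, Klhl4 and Nefl, of which Nefl was the nearest to 0 at -0.79. In ratios of CPM, Vrtn (0.460) and Ptchd1 (0.497) were past 2-fold.

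**Figure D2:**
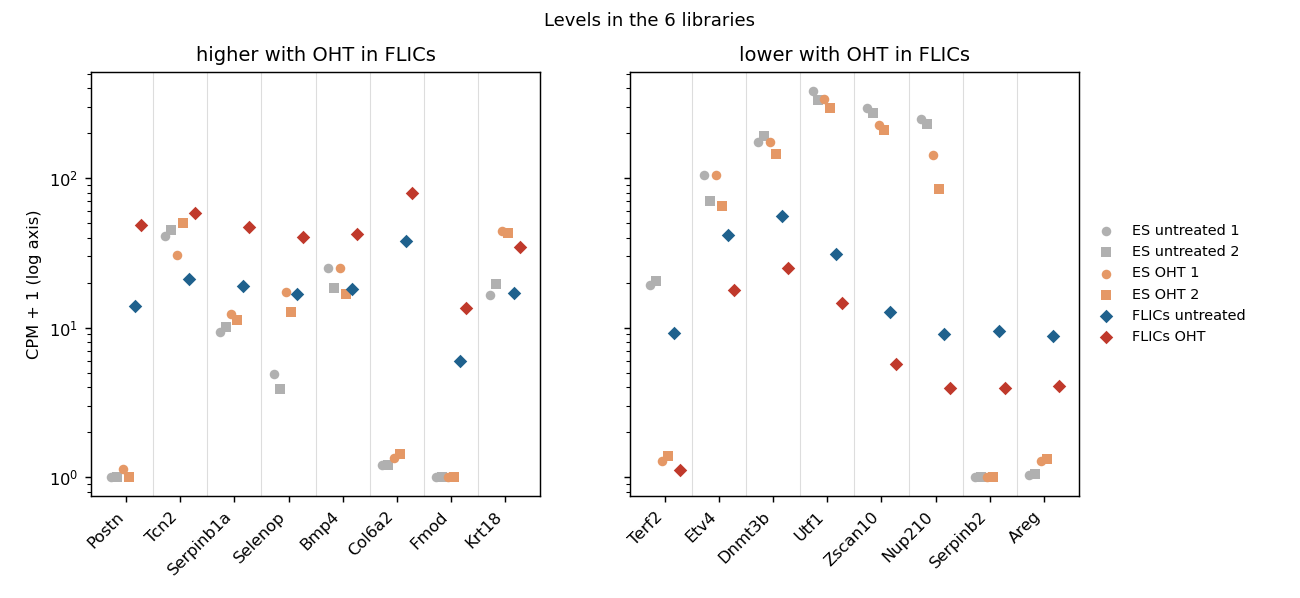
Levels (CPM + 1, log axis) of 8 genes higher and 8 lower with OHT in FLICs, in each of the 6 libraries; each symbol is 1 library. Postn, Col6a2 and Fmod are at 0.431 CPM or less in each ES library, Selenop and Krt18 stand higher with OHT in both cell types, and Etv4, Dnmt3b, Utf1, Zscan10 and Nup210 are below their ES levels in both FLICs libraries.

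Extracellular matrix genes as a group stood higher with OHT. Of 14 fibrillar and associated collagen genes counted, 12 had a difference above 0, 7 were at least 1.5-fold higher (against 3.49% of all genes) and 1 passed 2-fold. Their median was 0.57, against 0.03 for all genes. Col1a1 and Col1a2, the chains of type I collagen, were at 495 and 136 CPM untreated and 881 and 251 CPM with OHT. Col3a1, the type III chain, was at 422 and 722 CPM. The 3 listed chains of type VI collagen, which forms beaded filaments around cells, stood higher. Col6a1 was at 127 and 191 CPM, Col6a2 at 37.2 and 78.8 CPM, and Col6a3 at 5.93 and 12.4 CPM. Col6a3, with a ratio of CPM of 2.09, missed the size rule on the log2(CPM + 1) scale. Against the rest, Col2a1, the cartilage collagen, was at 153 CPM without and 111 CPM with OHT, and Col27a1 at 7.10 and 4.58 CPM. Col1a1, Col1a2, Col3a1 and the type VI chains were at 1.80 CPM or less in each ES library.

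Matricellular genes, whose secreted products signal from the matrix rather than build it, were above 0 in 18 of 19 members (median 0.49). Postn, Fmod, Ccn3 and Ogn were past 2-fold, and 8 were at least 1.5-fold higher (against 0.424% and 3.49% of all genes). Abundant members stood higher by smaller ratios: Thbs2 and Thbs1, which encode thrombospondins, were at 112 and 194 CPM and at 1050 and 1340 CPM. Fn1, fibronectin, was at 4763 and 6672 CPM, a ratio of 1.40 (1.39 to 1.41), and Sparc at 925 and 1294 CPM. The elastic fibre and cross-linking list had 24 of 29 members above 0 (median 0.22), 5 of them at least 1.5-fold higher. Lox, the lysyl oxidase that cross-links collagen and elastin, was at 34.7 and 70.0 CPM, and Loxl1 at 35.1 and 59.3 CPM. The basement membrane list had 15 of 18 above 0 (median 0.20). For the matrix proteases and their inhibitors 18 of 23 were above 0 (median 0.29), with 2 past 2-fold higher, among them Mmp19 at 3.06 and 7.18 CPM, and Serpinb2 past 2-fold lower. In bulk RNA, more matrix transcripts per cell and more cells that make them cannot be told apart.

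**Figure D3:**
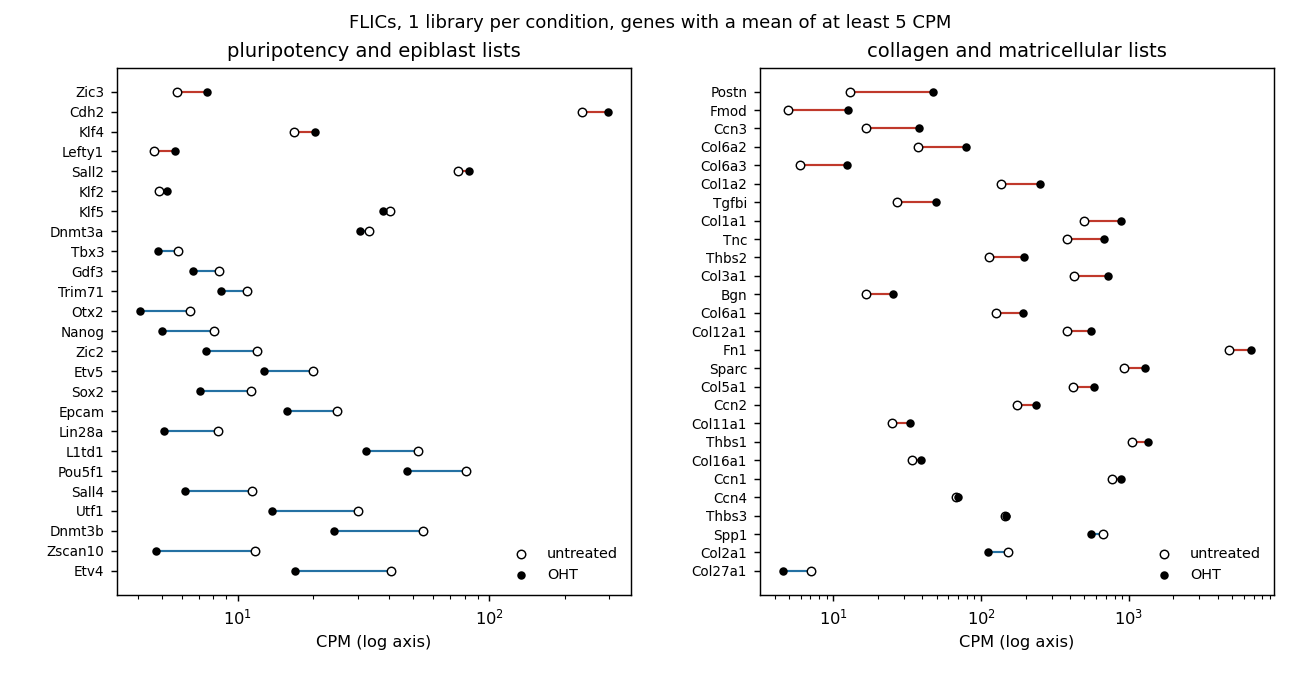
Level without OHT (open circle) and with OHT (filled circle) in FLICs, in CPM on a log axis, for genes whose mean reached 5 CPM in the naive pluripotency and epiblast lists (left) and in the collagen and matricellular lists (right); red lines join genes higher with OHT and blue lines lower ones. Most matrix genes stand higher, with Col2a1, Col27a1 and Spp1 lower, whereas Pou5f1, Dnmt3b, Etv4 and most epiblast genes stand lower.

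Smooth muscle contractile genes, which differentiated mesenchymal cells express when they turn contractile, stood higher in 15 of 17 members (median 0.46). Of these, 7 were at least 1.5-fold higher (against 3.49% of all genes). Cnn1, calponin, was at 5.80 CPM without and 13.4 CPM with OHT. Myl9, the regulatory myosin light chain, was at 41.9 and 72.3 CPM, and Actg2, enteric smooth muscle actin, at 44.4 and 76.2 CPM. Acta2, smooth muscle actin and one of the most abundant transcripts of FLICs, was at 5936 and 7921 CPM. Myh11, the heavy chain of mature smooth muscle, had 10 and 12 counts and so was nearly absent from both libraries.

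Promoters of the smooth muscle genes were searched for the CArG box, the core of the serum response element that binds the factor SRF, because these genes stood higher together. RefSeq windows (GRCm38.p6) of the 250 bases before the start were matched for 14 of the 17 genes and held the box, on either strand, in 3 of them (21.4%). It was found in 1.40% of the 9230 genes counted in FLICs that had a matched window. In the immediate early list it was found in 2 of 20 such genes (10%). The 3 windows are shown around their boxes, which are in capitals, with the gene's own strand from 5′ to 3′.
Myl9, chr2:156775283-156775332, plus strand: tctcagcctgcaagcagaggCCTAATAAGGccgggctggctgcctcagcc
Cnn2, chr10:79988524-79988573, plus strand: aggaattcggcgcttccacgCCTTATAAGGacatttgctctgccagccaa
Srf, chr17:46556215-46556264, minus strand: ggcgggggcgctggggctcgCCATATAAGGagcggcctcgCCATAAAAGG
The 3 genes were not alike. Myl9 had a difference of 0.77, Cnn2, a calponin of many cell types, was at 692 and 694 CPM, a difference whose sign depends on the scaling, and Srf itself was at 129 and 108 CPM, a difference of -0.25. A box in the window is a description of its letters and not a binding site.

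Genes of TGF-beta signalling, the pathway best known for driving matrix genes, were above 0 in 17 of 23 members (median 0.20, and 0.12 among members with at least 5 CPM). Among ligands, Tgfb2 was at 50.1 CPM without and 90.7 CPM with OHT, whereas Tgfb1 was at 59.9 and 56.3 CPM. The receptor gene Tgfbr2 was at 39.9 and 67.0 CPM. Of genes that the pathway is known to induce, Tgfbi stood higher (26.9 and 49.8 CPM), and Smad7, a feedback inhibitor, was at 26.5 and 24.2 CPM. The ligand and target genes thus did not all point one way, though of the 23 members 4 were at least 1.5-fold higher and 0 lower (against 3.49% and 0.925% of all genes). In the BMP branch, Bmp4 alone of 22 genes counted passed 2-fold, and the list's median was 0.02, a value whose sign flips to -0.01 under scaling by relative log expression or by the FLICs libraries alone. Id1, a direct BMP target, was at 103 and 78.2 CPM, and Id2 at 32.0 and 34.0 CPM. In the Wnt list 14 of 20 were above 0 (median 0.20), with the secreted antagonist Sfrp2 at 28.4 and 51.3 CPM and the antagonist Dkk1 at 3.95 and 1.78 CPM.

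Complement components and secreted carriers had the highest median of the lists, 0.79, with 14 of 14 members above 0. The lists were chosen with earlier results of these data known, so this rank is a description only. Of these, 10 were at least 1.5-fold higher (against 3.49% of all genes). Besides Tcn2 and Selenop, the complement-related C1qtnf6 passed 2-fold, and Serping1, the C1 inhibitor, at 1.08 and 3.16 CPM, lay just under it on the log2(CPM + 1) scale, which compresses low levels. Cp, the copper carrier ceruloplasmin, was at 22.7 and 43.8 CPM, and Apoe, the lipid carrier, at 79.3 and 141 CPM. C1ra, a protease of the first complement component, was at 14.7 and 26.0 CPM, and Clu, the chaperone clusterin, at 200 and 292 CPM. C3 itself, the central component, had 4 and 11 counts. The median was 0.47 when genes under 1 CPM were kept.

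Genes of the pluripotent epiblast stood lower with OHT. Of 23 formative and primed epiblast genes counted, 19 were below 0, 13 were at least 1.5-fold lower (against 0.925% of all genes) and 5 passed 2-fold. The median was -0.61, and -0.35 with a pseudocount of 5 CPM. The 5 were Etv4, Zscan10, Dnmt3b, Utf1 and T, the mesoderm factor brachyury, which had 84 counts without OHT and 32 with it. Others were lower by less: L1td1, an RNA-binding protein of pluripotent cells, was at 52.2 and 32.5 CPM, Epcam, an adhesion molecule, at 24.7 and 15.8 CPM, and Lin28a, a repressor of let-7 maturation, at 8.37 and 5.08 CPM. Fgf5, a marker of the formative epiblast, was at 4.57 and 2.45 CPM. Cdh2, the N-cadherin of mesenchymal cells that is also on this list, stood higher at 235 and 297 CPM.

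The naive pluripotency list had 11 of 24 members at 1 CPM or more, 7 of them below 0. At least 1.5-fold lower were 4 (against 0.925% of all genes). The median of -0.23 was -0.14 with a pseudocount of 5 CPM and 0 when genes under 1 CPM were kept. Those 4 include the core regulators. Pou5f1, which encodes OCT4, was at 80.9 and 47.3 CPM, a ratio of 0.585 (0.552 to 0.620). Sox2 was at 11.3 and 7.07 CPM, Nanog at 8.06 and 4.99 CPM, and Sall4 at 11.4 and 6.18 CPM. The FLICs levels of Pou5f1 lie far under the 1288 to 1441 CPM of the 4 ES libraries. Klf4, which many differentiated cells also express, was at 16.8 and 20.2 CPM.

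Other genes that ES cells express were at or near 0 in FLICs, too low to show a lower level with OHT. Zfp42, a defining marker of undifferentiated ES cells, had no count in either FLICs library and 99.2 to 115 CPM in ES cells. Esrrb had 6 counts in each FLICs library, Tfcp2l1 had 0 and 6, and Dppa5a 1 and 7, against 62.1 to 745 CPM for these 3 in ES cells. Over the 8 markers of undifferentiated ES cells, 4 reached 1 CPM in FLICs, and the summed level was 105 CPM untreated and 65.0 CPM with OHT. A set chosen from the ES libraries instead, after the FLICs values were known, held 111 genes at 20 CPM or more in ES cells and at least 100-fold above the FLICs mean. Its sum was 48.7 CPM untreated and 52.6 CPM in the OHT library, a ratio of 1.08 (1.01 to 1.15), with 72 genes higher and 39 lower. With the bound at 30-fold, 197 genes summed to 318 and 268 CPM, a ratio of 0.841 (0.819 to 0.864), with 106 genes higher and 91 lower. At 10-fold 315 genes gave 0.960 (0.948 to 0.973), with 167 higher and 148 lower. More genes were higher than lower in each set, as among all genes counted, of which 56.4% were above 0 under the main scaling. The sums of the wider sets were lower. Each set was picked by a low mean over the same FLICs libraries, which limits what its sum can show. The 30-fold and 100-fold sets leave out Pou5f1 and Utf1, which in ES cells were less far above their FLICs levels. The part of undifferentiated cells in the lower epiblast genes was not tested.

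EGF receptor ligands and targets of the ERK kinase cascade, through which growth factors drive proliferation, stood lower in 20 of 27 members (median -0.24). Of these, 7 were at least 1.5-fold lower and 3 passed 2-fold (against 0.925% and 0.102% of all genes). The 3 are Serpinb2, Etv4 and Areg, and Etv4 is shared with the epiblast list. Among ligands, Areg stood lower and Hbegf was at 25.1 and 21.1 CPM. The receptor Egfr was at 81.2 and 106 CPM. Among targets, Fosl1, an AP-1 subunit, was at 79.8 CPM without and 49.4 CPM with OHT, Ccnd1, cyclin D1, at 190 and 120 CPM, and Dusp6, the ERK phosphatase, at 118 and 76.5 CPM. Etv5 was at 19.8 and 12.7 CPM, and Spry4, an inhibitor of the cascade, at 7.38 and 5.01 CPM. Receptor and targets thus differed in direction. Of the immediate early genes, many of them induced by the same cascade, 17 of 25 were above 0 against 56.4% of all genes (median 0.17). They were mixed: Fos was at 139 and 210 CPM and Egr2 at 7.07 and 12.5 CPM, and Fosl1, which is also on this list, had a difference of -0.68.

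**Figure D4:**
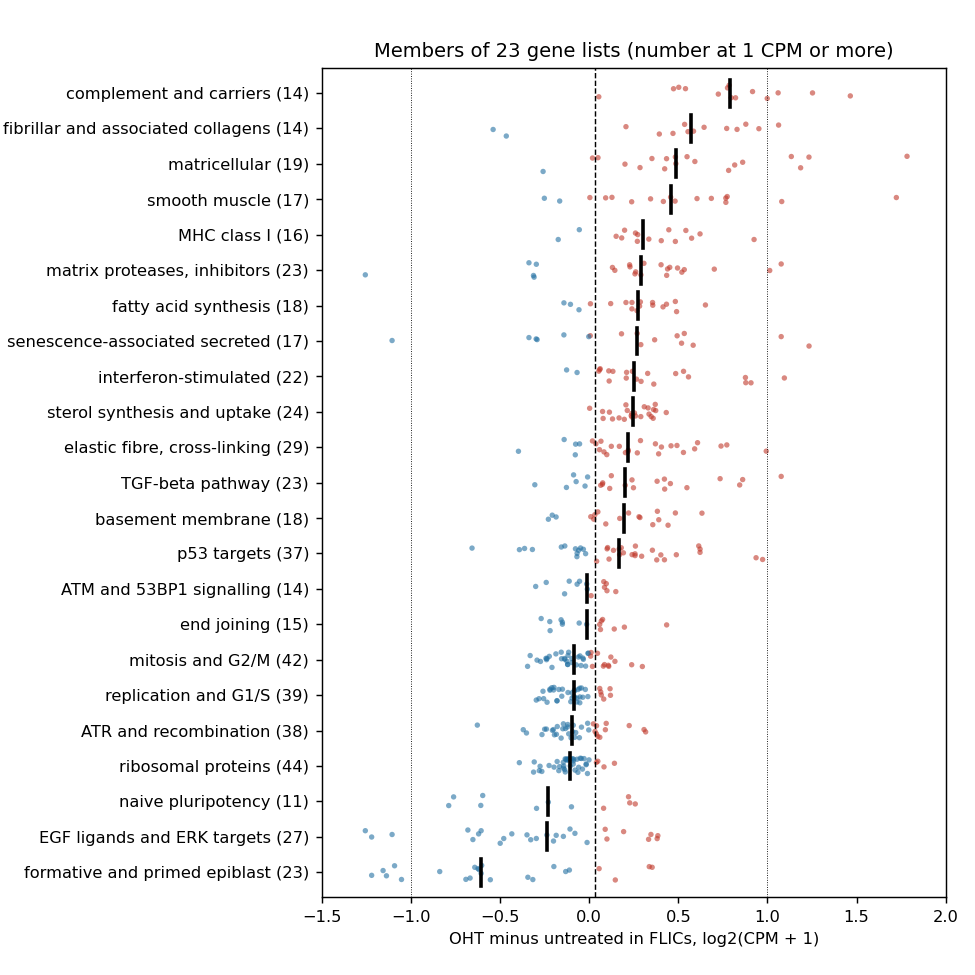
Each point is a gene counted in FLICs (mean of 1 CPM or more), placed by OHT minus untreated in log2(CPM + 1); rows are 23 gene lists with the number of genes counted, thick bars are list medians, the dashed line is the median of all genes and dotted lines mark 2-fold. Complement and carriers, collagens, matricellular and smooth muscle genes lie mostly to the right, and the epiblast list, with a median of -0.61, to the left.

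The genes of the telomere damage response stood close to the background in FLICs. The ATM and 53BP1 signalling list had 6 of 14 members above 0 (median -0.01), and the end-joining list 7 of 15 (median -0.01). Rif1, a 53BP1 effector, was at 204 CPM without and 166 CPM with OHT, and Parp1, of the alternative joining route, at 322 and 277 CPM. No gene of either list was 1.5-fold apart. The ATR and homologous recombination list had 27 of 38 below 0 (median -0.10). Dna2, a nuclease of end resection, was the only member at least 1.5-fold lower, at 27.2 and 17.3 CPM. Telomerase and t-loop factors had 12 of 18 below 0 (median -0.07). In it the dyskerin complex genes Dkc1 and Nhp2 were at 279 and 203 CPM and at 515 and 360 CPM, and Tert, the reverse transcriptase, was at 5.15 and 5.95 CPM.

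Cell cycle genes differed little. Replication and G1/S genes were below 0 in 33 of 39 members and mitosis and G2/M genes in 30 of 42, each with a median of -0.08 and no member 1.5-fold apart. Mki67, a marker of cycling cells, was at 601 and 478 CPM, and Foxm1, a factor that drives mitotic genes, at 179 and 140 CPM. Ribosomal protein genes were below 0 in 40 of 44 members (median -0.11). Among CDK inhibitors and RB genes 10 of 16 were above 0 (median 0.06), near the share of all genes. Cdkn2a, which encodes p16 and p19ARF, was at 580 and 665 CPM in FLICs and between 36.0 and 42.5 CPM in ES cells. Rb1 was at 4.82 and 8.08 CPM.

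Trp53, which encodes p53, was at 8.98 CPM in untreated FLICs and 7.82 CPM with OHT. The untreated ES libraries had 299 and 345 CPM and the OHT-treated ones 8.39 and 83.1 CPM. Both FLICs libraries were thus at the level of the first OHT-treated ES library, the lowest in ES cells. Over 36 p53 targets also expressed in ES cells, the ES pairs with that library had medians of -0.885 and -0.916. Those with the second OHT-treated library had 0.098 and 0.066. The labels give untreated FLICs as wild-type and say nothing of the state of p53, so whether FLICs have working p53 is not known here, which limits what the p53 target and Cdkn1a values can show. The p53 target list had 24 of 37 members above 0, near the 56.4% of all genes. Its median was 0.17, 0.0727 among members with at least 5 CPM and 0.11 with a pseudocount of 5 CPM. At 1.5-fold, 5 were higher and 1 lower (against 3.49% and 0.925% of all genes), and none passed the 2-fold size rule. Fas, the death receptor, was at 9.29 and 18.7 CPM, and Btg2, an antiproliferative factor, at 2.90 and 6.66 CPM. Both were past 2-fold in CPM but under it on the log2(CPM + 1) scale. Cdkn1a, which encodes the cell cycle inhibitor p21, had 58 and 144 counts, or 1.79 and 3.29 CPM, far under the 37.4 and 37.3 CPM of untreated ES cells. Mdm2, the ubiquitin ligase of p53, was at 95.3 and 93.9 CPM. The Bcl2 family of apoptosis genes had 7 of 13 above 0 (median 0.01, with a sign that flips to -0.01 and -0.02 under relative log expression scaling and scaling by the FLICs libraries alone).

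Inflammatory and secretory genes were mixed. The senescence-associated secretory list had 11 of 17 members above 0, and its median of 0.27 was 0.00616 among members with at least 5 CPM, 0.13 with a pseudocount of 5 CPM and 0.0326 with genes under 1 CPM kept. In it 2 genes passed 2-fold higher, among them Cxcl15, and Areg passed 2-fold lower (against 0.424% and 0.102% of all genes). Cxcl12, a stromal chemokine, was at 86.7 and 123 CPM, whereas Ccl2, a monocyte chemokine, was at 68.1 and 55.4 CPM, and Il6 had 16 and 33 counts. Interferon-stimulated genes were above 0 in 20 of 22 members (median 0.25, and 0.16 with genes under 1 CPM kept). Of these, 4 were at least 1.5-fold higher (against 3.49% of all genes). Gbp2, a guanylate-binding protein, was at 14.0 and 27.2 CPM, and Irf9, a subunit of the interferon-activated factor, at 11.7 and 17.6 CPM. Ifi27 had 14 and 90 counts, or 0.432 and 2.06 CPM, and reached a mean of 1 CPM only through the OHT library. Low members limit this list: Isg15 had 45 and 107 counts and Ifit1 0 and 9. The MHC class I list had 14 of 16 above 0 (median 0.30), with B2m, the light chain of class I molecules, at 281 and 339 CPM and Tapbp, a peptide-loading factor, at 146 and 204 CPM.

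Lipid genes stood slightly higher with OHT. Sterol synthesis and uptake genes were above 0 in 24 of 24 members (median 0.25), none of them 1.5-fold higher. The lowest was at 0.00256, nearer to 0 than the shift of -0.039 that another scaling gives to all genes. Cyp51, lanosterol demethylase, was at 389 CPM without and 525 CPM with OHT. Sqle, squalene epoxidase, was at 142 and 184 CPM, and Hmgcs1, an early enzyme of the pathway, at 471 and 583 CPM. The fatty acid list had 15 of 18 above 0 (median 0.28). The desaturase genes Scd2 and Scd1 were at 632 and 889 CPM and at 151 and 212 CPM, while Fasn, fatty acid synthase, was at 523 and 474 CPM. In ES cells the medians of both lists were below 0 in each of the 4 pairs.

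The sterol regulatory element was searched as TCACNCCAC on both strands because sterol genes stood higher together. It was found in 1 of the 17 listed genes with a matched window (5.88%) and in 1.24% of the 9230 genes. The window is that of Hmgcs1, with the element in capitals.
Hmgcs1, chr13:119690194-119690242, plus strand: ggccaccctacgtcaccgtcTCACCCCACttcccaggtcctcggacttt
None of the 15 fatty acid genes with a matched window held these letters.

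Stress, metabolic and lineage lists varied in their medians. The ATF4 and unfolded protein list had 22 of 31 above 0 (median 0.11, and 0.0666 among members with at least 5 CPM), with the stress factor Ddit3 at 19.4 and 29.9 CPM and Nupr1 just past 2-fold at 5.03 and 11.1 CPM. The NRF2 list had 15 of 22 above 0 (median 0.12), with Cbr2 the only member past 2-fold. The YAP and TEAD list had 14 of 21 above 0 (median 0.11) and the insulin-like growth factor list 14 of 17 (median 0.18). Scaled by the FLICs libraries alone, the ATF4 median was 0.0657 and that of the YAP list 0.0748. Glycolysis and hypoxia genes were below 0 in 18 of 26 members (median -0.08). In that list Hk2, hexokinase 2, was at 58.4 and 39.0 CPM and Ndrg1 at 23.6 and 43.3 CPM. Adipogenic genes were above 0 in 9 of 12 (median 0.38, and 0.10 with genes under 1 CPM kept), with the adipocyte regulator Pparg at 19.3 and 36.4 CPM and its target Plin4 at 5.03 and 10.3 CPM. Osteochondrogenic genes had 6 of 11 below 0 (median -0.13, and 0 with genes under 1 CPM kept). DNA methylation enzymes had 10 of 16 below 0 (median -0.08), with Dnmt3b the only one past 2-fold. Histone genes had a median of 0.00 over 15 members, with a sign that flips under each scaling tried.

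OHT binds oestrogen receptors, and Esr1, the gene of oestrogen receptor alpha, was at 141 CPM without and 129 CPM with OHT. The oestrogen receptor and target list had 7 of 13 above 0 (median 0.11, 0.18 among members with at least 5 CPM and 0.0521 with genes under 1 CPM kept, and 0.0652 scaled by the FLICs libraries alone). Greb1, a classical target, had 44 and 26 counts, Pgr, the progesterone receptor, had 2 in each library, and Cyp1b1 was at 60.3 and 98.8 CPM. The part of OHT itself in these values was not tested.

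Cell type markers were read beside these groups. Of 18 fibroblast markers 11 reached 1 CPM, 9 of them above 0 with OHT (median 0.36). Their summed level, mostly Vim, Fn1 and the collagens, was 12193 CPM untreated and 15416 CPM with OHT. The markers Pdgfrb (72.0 and 89.5 CPM) and Prrx1 (27.1 and 34.9 CPM) were present. Pdgfra had 7 and 34 counts, Thy1 18 and 28, Lum 0 and 4 and Fap 0 and 2, so several defining fibroblast markers were at or near 0 in both libraries. The epithelial list had 4 of 8 above 0 (median 0.17, 0.44 among members with at least 5 CPM, 0.0650 with a pseudocount of 5 CPM and 0.0720 with genes under 1 CPM kept). Its keratins Krt18 (16.1 and 33.6 CPM) and Krt8 (7.47 and 12.1 CPM) stood higher, whereas Epcam stood lower. Krt18 was also higher with OHT in ES cells, at 15.4 and 18.5 CPM untreated and 43.7 and 42.0 CPM with OHT. The mesothelial list had 3 of 6 markers at 1 CPM, with Msln at 7.32 and 13.7 CPM. Of 12 endothelial markers 3 reached 1 CPM, with Flt1 at 10.3 and 13.8 CPM and Egfl7 at 6.30 and 6.89 CPM, and the list summed to 19.3 and 24.5 CPM. The defining markers Cdh5 (2 counts and 1) and Tie1 (no count) were at or near 0. Of 12 blood markers Cd68 alone reached 1 CPM, with 357 and 429 counts, the list summed to 11.2 and 10.6 CPM, and Ptprc had no count. Striated muscle (6 genes counted, median 0.22, 0.0821 with a pseudocount of 5 CPM and 0.0326 with genes under 1 CPM kept), neural (4, median 0.03), endoderm (4, median 0.03), trophoblast (4, median 0.29), endothelial (3, median 0.40), blood (1) and germ cell (1) lists had no gene past 2-fold. The part of any shift in cell makeup in the matrix and epiblast genes was not tested.

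Genes of the two-cell embryo were at or near 0 in FLICs. None of the 23 list members matched in the table reached a mean of 1 CPM, and 15 had no count in either library. Their sum was 0.679 CPM without and 1.12 CPM with OHT. Hox genes, which record position along the body axis, were above 0 in 16 of 21 members (median 0.22, 0.13 with a pseudocount of 5 CPM and 0.0518 with genes under 1 CPM kept), with Hoxb9 at 22.7 and 28.6 CPM. The list of epithelial-mesenchymal regulators and cadherins had 14 of 20 above 0 (median 0.14), with Snai2 at 78.2 and 105 CPM.

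Side by side, the FLICs pair and the 4 ES pairs showed like and unlike list medians, taken over genes at 1 CPM or more in both cell types. The epiblast list was at -0.61 in FLICs over 21 genes and between -0.38 and -0.26 in the ES pairs. The matricellular list was at 0.39 over 10 genes and between 0.51 and 0.67. The median of all such genes was 0.03 in FLICs and between -0.09 and -0.07 in the ES pairs. The interferon list was at 0.25 in FLICs over 14 genes and between -0.18 and -0.09 in ES cells, not far under all genes there. The sterol list was at 0.25 over 24 genes and between -0.41 and -0.32. The ERK list was at -0.22 over 24 genes and between -0.10 and 0.19. Of the 50 genes past 2-fold higher in FLICs, 31 had at least 1 CPM in ES cells. Of those, 15 were above 0 in all 4 ES pairs, 3 were below 0 in all 4 and 13 were mixed. Of the 12 lower genes 7 were expressed in ES cells, 4 below 0 in all 4 pairs and 3 mixed. Those 4 are Nup210, Zscan10, T and Terf2 itself, which is lower in both cell types by design. Of all genes counted in an ES pair, 39.4% to 45.3% were above 0. The share of all genes on one side of 0 in all 4 pairs is not given here, so these overlap counts have no background. The OHT-treated ES libraries also differed from each other in Trp53 and in the p53 target median, as given above. None of these differences between cell types was tested.

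**Figure D5:**
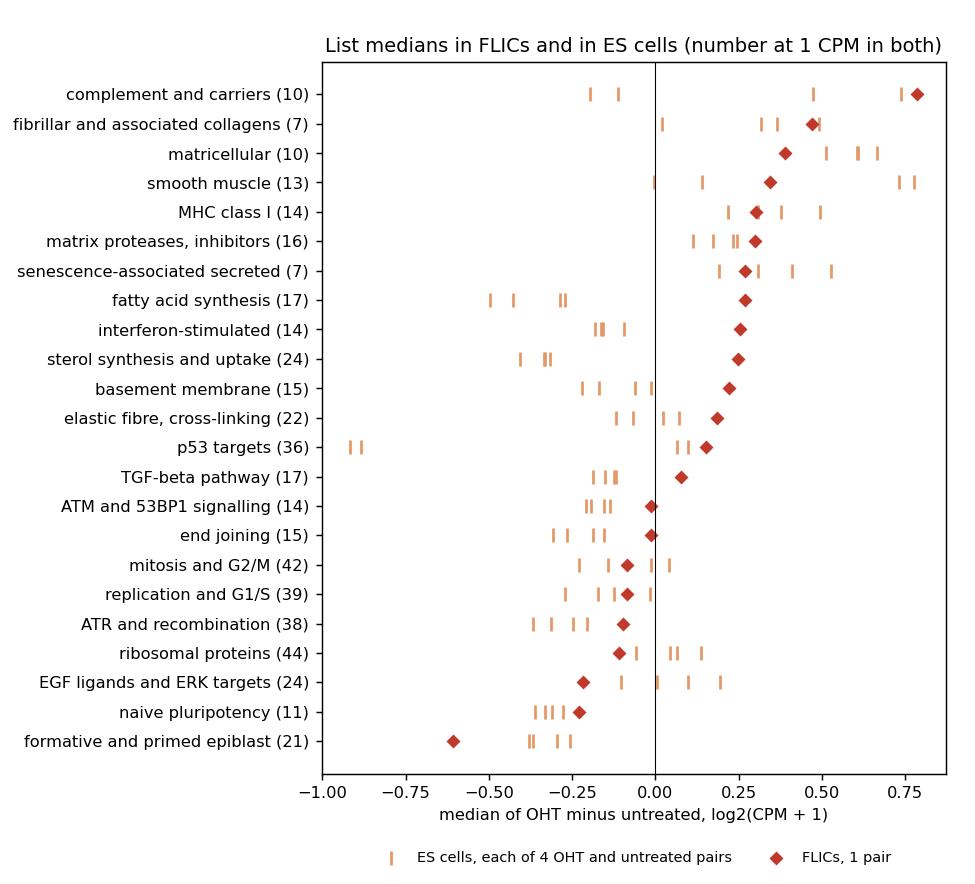
Median of OHT minus untreated in log2(CPM + 1) for gene lists, over the genes with at least 1 CPM in both cell types (number after each name); the red diamond is the 1 FLICs pair and each orange tick is 1 of 4 ES pairs, which share libraries. Sterol, fatty acid, interferon, TGF-beta and basement membrane lists lie above 0 in FLICs and below 0 in each ES pair. The epiblast list lies below 0 in both. The median of all such genes, not drawn, was 0.03 in FLICs and between -0.09 and -0.07 in the ES pairs.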

How the data were processed

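The series is RNA-seq of total RNA; per the labels' protocols the libraries were made with a stranded total RNA kit. The authors' deposited table holds whole-number counts per gene (Ensembl IDs) and a length per gene. Salmon, DESeq2 and the build GRCm38 are listed without roles, per the submitters' processing notes. The length column, in bases by its values, was used only to order genes. Mitochondrial genes (13) were at 0 in every library. Symbols were matched for 22509 of 22600 IDs.

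Counts were filtered by group (edgeR 4.0.16 in R 4.3.3, filterByExpr, 15535 genes kept) and scaled by TMM over the 6 libraries. CPM, differences in log2(CPM + 1) and exact intervals were computed in Python 3.11.15, scipy 1.17.1, and were tested on simulated data. The size rule asks 2-fold and a mean of 1 CPM. No count model was fitted, since each FLICs condition has 1 library. Alternatives were other scalings, pseudocounts of 0.5 and 5 CPM, other level filters and 1.5-fold.

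Named genes are Terf2, the 15 highest and 15 lowest differences among named genes whose mean reached 5 CPM, and up to 4 members per list, plus defining members of each list. Genes named beside these, such as Btg2, Ifi27, Serping1, Cxcl15, T and Ogn, were chosen after their values were seen. The comparison, the members and the gene lists were chosen with earlier results of these data known, and several lists share genes. H19, Shld3, Ptprv and 2 two-cell genes on the lists had no row matched here. A few genes that the rule names are not reported here.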

Additional observations from a re-analysis of the deposited data

Results flagged for a closer look

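5 results had the opposite sign in FLICs and in each of the 4 pairs of an OHT and an untreated ES library, by at least 0.1 for list medians and 0.3 for single genes on each side, out of 41 lists and 31 genes compared, and the difference between cell types was not tested. The median of the fatty acid synthesis list was 0.268 in FLICs over 17 genes at 1 CPM or more in both cell types, and between -0.498 and -0.272 in the ES pairs. The median of the sterol synthesis list was 0.247 over 24 genes, and between -0.406 and -0.316 in ES cells. Pim2, a survival kinase, had a difference of -0.924 in FLICs (29.1 CPM without and 14.9 CPM with OHT) and of 0.646 to 0.776 in the ES pairs. Fgf7, a growth factor made by mesenchymal cells, had -0.913 in FLICs (15.3 and 7.66 CPM) and 0.305 to 0.392 in ES cells, where it stayed under 1 CPM. Nefl, a neurofilament, had -0.788 in FLICs (7.01 and 3.64 CPM) and 0.308 to 0.531 in ES cells. The ES pairs share libraries, and FLICs have 1 library per condition.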

How the results depend on the processing

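No paired analysis was possible because each FLICs condition has 1 library, and for the same reason no library could be left out. Medians close to 0 (BMP, Bcl2 family, histones and end joining) changed sign under some settings. Gene differences smaller than the shifts between scalings, such as those of Gata4, Cnn2 and Pot1a, change sign with the scaling. Scaling moved the median of all genes by at most -0.039, to -0.00455 with the FLICs libraries alone, and left 54 to 60 genes past 2-fold, against 62. The share of genes above 0, and the counts of list members above 0, thus depend on the scaling. A pseudocount of 0.5 CPM gave 112 genes (92 higher, 20 lower) and one of 5 CPM gave 8 (5 higher, 3 lower). At 1.5-fold there were 520 (411 and 109), and with a mean of at least 5 CPM there were 37 (29 higher). With a pseudocount of 5 CPM medians moved to 0.13 (Hox), 0.20 (MHC class I), 0.13 (senescence-associated), 0.54 (complement and carriers), 0.0650 (epithelial), -0.14 (naive pluripotency), -0.35 (epiblast), 0.34 (smooth muscle) and 0.0821 (striated muscle). Without a level filter they were 0.0518 (Hox), 0.0326 (senescence-associated), 0.10 (adipogenic), 0.47 (complement and carriers), 0.0720 (epithelial), 0.25 (fibroblast), 0.16 (interferon), 0 (naive pluripotency), 0 (osteochondrogenic), 0.34 (smooth muscle) and 0.0326 (striated muscle), since genes near 0 enter. With at least 5 CPM they were -0.0728 (Bcl2 family), 0.00616 (senescence-associated), 0.12 (TGF-beta), 0.48 (adipogenic), 0.44 (epithelial), 0.0727 (p53 targets) and 0.38 (smooth muscle), over fewer genes. Of the single-gene values, 83 moved by more than 0.0754, the spread between the untreated ES libraries, with the pseudocount of 5 CPM and 11 with that of 0.5 CPM.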
